A study of Homo sapiens with 2 samples.

Results

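To describe the transcription factors that maintain the squamous epithelial state in cells with and without GLUT4 overexpression, the probe sets of SOX2, KLF4, KLF5, GRHL1, GRHL2, GRHL3, TFAP2A, TFAP2C and OVOL1 were taken from the arrays. A probe set was included when the platform annotation named a single listed factor for it. Of 10 listed factors, 9 were represented, by 19 of the 54675 probe sets, and the remaining factor is not analysed here. The data came from FaDu, an established human line of head and neck squamous carcinoma from the pharynx. The GLUT4 cells stably expressed the introduced glucose transporter, and the vector cells carried the control vector. Both had been transduced with lentivirus and selected with puromycin for stable carriers, and neither the promoter driving GLUT4 nor whether a group was a single clone is given in the sources used here. Each group had 1 array of the Human Genome U133 Plus type, so no test was possible, no value has a replicate check, and GLUT4 and every other difference between the cell populations cannot be told apart.

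These factors act together in stratified epithelia. Basal cells of the skin and of the lining of the mouth and pharynx keep a proliferative programme, whereas cells moving upward leave the cycle and build a barrier. KLF5 and SOX2 are associated with the proliferative layers, KLF4 and GRHL3 with barrier formation, GRHL1 with desmosomes, GRHL2 with junctions and the repression of mesenchymal genes, the AP-2 factors TFAP2A and TFAP2C with keratinocyte gene expression, and OVOL1 with the exit from proliferation.

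Squamous markers gave signal on both arrays. Among 8 of them, 6 had a probe set naming them alone, and all of these 6 lay above 39.3, the median intensity of all probe sets. Their median difference was 0.18 on the log2 scale. Of the 6, 1, KRT14, was more than 1.5-fold higher in GLUT4 cells (16.7%, beside 1.84% of all genes). The basal keratin KRT5 had intensities of 13093 in GLUT4 cells and 11024 in vector cells, and SFN, a cell cycle inhibitor of stratified epithelia, had 11894 in GLUT4 cells and 11921 in vector cells. On their brightest probe sets, all 6 endothelial markers lay within 1.5-fold between the arrays, as did the 6 leukocyte and the 4 melanocyte markers measured. The medians of these lists were 0.05, 0.05 and -0.10. Of these markers, 2 endothelial, 1 leukocyte and 2 melanocyte ones lay above 39.3 as well. This leukocyte marker, ITGB2, was at -0.42 on its brightest probe set. Its other probe sets were at -1.27 (28.5 in GLUT4 cells and 68.9 in vector cells) and 0.23, and the average was -0.49, within 1.5-fold. Of 8 fibroblast markers, 2 were more than 1.5-fold higher in GLUT4 cells (25%, beside 1.84% of all genes), and the median was 0.18. The keratins KRT7, KRT8 and KRT18 of simple epithelia were bright as well, at 2858 in GLUT4 cells and 2684 in vector cells for KRT8. SLC2A4, which encodes GLUT4, read 32.6 in GLUT4 cells and 28.3 in vector cells, and this value does not check the labels, because it was not determined whether its probe set covers the introduced sequence.

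None of the 9 factors differed by more than 1.5-fold, the threshold of the study's methods, on the brightest of its probe sets, which stands for each gene. Of all 19775 genes, 1.84% were more than 1.5-fold higher in GLUT4 cells and 1.54% more than 1.5-fold lower, so a count of 0 among 9 factors is near that background. None of the 19 probe sets passed 1.5-fold either, as 3.34% of all probe sets naming a single gene did. The factors' differences, each the log2 intensity of GLUT4 cells minus that of vector cells, ran from -0.47 for GRHL1 to 0.04 for SOX2. Their median was -0.20, beside -0.02 for all genes. Of the 9 factors, 8 lay below 0, and 52.2% of all genes did so. The only measure of technical error was how far probe sets for one gene disagreed, which gave an SD of 0.20 per probe set over 10523 genes. This SD covers neither the variation between cultures nor the labelling of separate RNA samples. By this measure 5 of the factors lay within 1 SD of 0, and 1, GRHL1, lay beyond 2 SD.

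**Figure D1:**
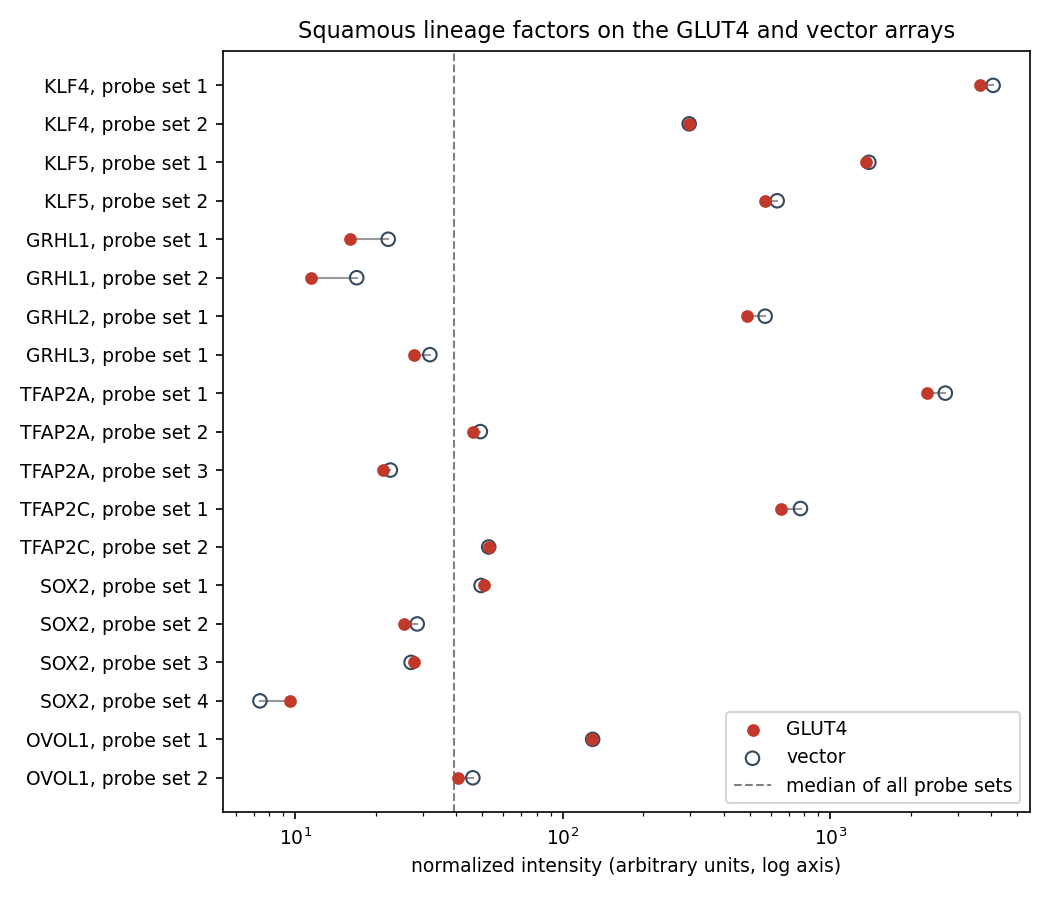
Normalized intensity (horizontal log axis, arbitrary units) of each of the 19 probe sets in GLUT4 cells (filled) and vector cells (open), with 1 array per group and no error bars. The dashed line marks the median of all probe sets at 39.3. In 15 of the 19 probe sets the GLUT4 point lies left of the vector point, in some by next to nothing. Most factors have several probe sets, and by gene 52.2% of all genes lay below 0.

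The Krüppel-like factors KLF4 and KLF5 stayed close to equal. KLF4, a zinc finger factor of the differentiating layers, had intensities of 3638 in GLUT4 cells and 4067 in vector cells on its brighter probe set, a log2 difference of -0.16, and 297 on both arrays on the other. KLF5, which is expressed in proliferating basal cells, read 1361 in GLUT4 cells and 1396 in vector cells on its brighter probe set, a log2 difference of -0.04. Its second probe set read 570 and 634 in GLUT4 and vector cells, a log2 difference of -0.15. The 4 probe sets of these factors all lay well above the median signal, and the lowest of their differences, -0.16, is nearer to 0 than the SD of 0.20.

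The Grainyhead-like factors were lower in GLUT4 cells on every probe set measured, beside 52.2% of all genes on their brightest probe sets. GRHL1, which activates desmosomal cadherin genes, read 16.1 in GLUT4 cells and 22.3 in vector cells on its brighter probe set, a log2 difference of -0.47, and 11.4 and 17.0 in GLUT4 and vector cells on the other, a log2 difference of -0.57. Both GRHL1 probe sets lay below the median signal on both arrays, and its difference was -0.17 once 32 had been added to all intensities to damp changes at low signal. No other factor had a difference this far below 0. GRHL2, the member of the family that maintains epithelial junctions, had 1 probe set, at 488 in GLUT4 cells and 571 in vector cells (-0.23). GRHL3, which is required for the skin barrier, also had 1 probe set, below the median signal at 27.7 in GLUT4 cells and 31.8 in vector cells (-0.20).

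The AP-2 factors, which bind GC-rich elements of many keratinocyte genes, gave similar differences on their bright probe sets. TFAP2A read 2293 in GLUT4 cells and 2696 in vector cells, a log2 difference of -0.23. Its other probe sets were far dimmer, at 46.0 and 21.2 in GLUT4 cells and 49.2 and 22.7 in vector cells, with differences of -0.10 and -0.09. TFAP2C read 653 in GLUT4 cells and 775 in vector cells, a log2 difference of -0.25, and its dim probe set read 53.0 and 52.9 in GLUT4 and vector cells (0.01). The dim TFAP2C probe set thus did not share the difference of the bright one. TFAP2A-AS1, an antisense transcript beside TFAP2A, was higher in GLUT4 cells, at 54.9 and 64.5 on its 2 probe sets against 47.2 and 53.0 in vector cells, within 1.5-fold.

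SOX2, a high-mobility-group factor amplified in many squamous carcinomas, gave a weak signal in both cell populations. The brightest of its probe sets gave 50.8 in GLUT4 cells and 49.5 in vector cells, a log2 difference of 0.04. The other 3 SOX2 probe sets lay below the median signal, with differences of 0.04, -0.17 and 0.37, the last of these at intensities of 9.54 in GLUT4 cells and 7.37 in vector cells. These span 0.54, the widest range among the factors, and no direction can be read from them. OVOL1, a zinc finger repressor that helps basal cells to stop dividing, read 128 in GLUT4 cells and 129 in vector cells on its brighter probe set (-0.01), and 40.6 and 46.1 in GLUT4 and vector cells on the other (-0.18).

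Ordered by difference, neighbouring factors could not be separated. From TFAP2C through TFAP2A, GRHL2 and GRHL3 to KLF4 the differences spanned 0.09, and from KLF5 through OVOL1 to SOX2 they spanned 0.07, both less than that SD. GRHL1 lay 0.22 below TFAP2C, which is less than 0.29, the SD of the gap between 2 probe sets for one gene. Of the 10 probe sets that are not the brightest of their gene, 7 lay below 0 and 3 above, and the median was -0.09. On the brightest probe sets, 52.2% of all genes lay below 0. The 7 factors above the median signal had a median of -0.16, beside 0.00 for all 12939 genes above it.

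**Figure D2:**
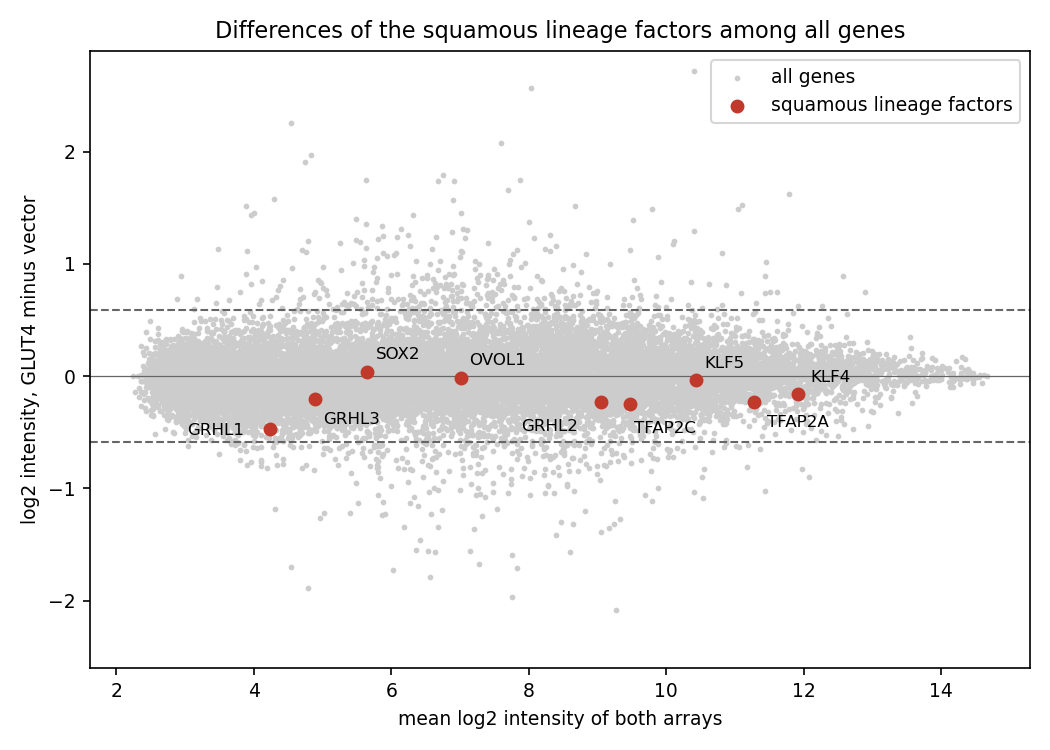
Log2 intensity of GLUT4 cells minus vector cells (vertical axis) plotted by average log2 intensity (horizontal axis) for all genes (grey) and the 9 squamous lineage factors (red), with dashed lines at 1.5-fold. All red points lie between the dashed lines, and 8 of the 9 lie below 0, among them OVOL1 at -0.01.

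The start-site sequences of the factors were searched for short elements that such factors are known to bind. RefSeq start sites (GRCh38.p14) were held for 6 of the 9 measured factors, in 9 windows of 250 bases before the start. Both strands were searched for AACNNGTT (Grainyhead-like), GCCNNNGGC (AP-2), CCACACCC (Krüppel-like), CATTGT (SOX), CCGTTA (OVOL) and CACCTG (the E-box of SNAI and ZEB repressors), and matches in any overlap were counted. Of the 9 windows, 3 held the AP-2 element, 3 the SOX element and 1 the E-box, and none held the other elements. Over 35116 such windows of all genes, 19.8% held the AP-2 element, 9.29% the SOX element, 17.5% the E-box, 2.97% the Krüppel-like element and 2.45% the OVOL element, and 1053 held the Grainyhead-like element. The windows of the barrier factors KLF4, with an AP-2 element, and GRHL3, with a SOX element and an E-box, are shown 5′ to 3′ with the matches in capitals. KLF4 lies on the minus strand at chr9:107489770-107490019 and this GRHL3 start on the plus strand at chr1:24319107-24319356.
KLF4: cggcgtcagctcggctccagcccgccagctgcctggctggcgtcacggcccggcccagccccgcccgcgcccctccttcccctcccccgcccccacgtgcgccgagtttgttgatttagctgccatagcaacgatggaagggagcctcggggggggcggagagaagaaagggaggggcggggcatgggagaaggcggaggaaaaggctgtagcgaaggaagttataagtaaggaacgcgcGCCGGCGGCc
GRHL3: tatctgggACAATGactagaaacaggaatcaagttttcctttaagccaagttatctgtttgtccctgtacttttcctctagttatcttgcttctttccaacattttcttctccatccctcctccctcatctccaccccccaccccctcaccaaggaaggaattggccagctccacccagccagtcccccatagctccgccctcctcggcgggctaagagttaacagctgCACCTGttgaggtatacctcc
The AP-2 match of KLF4 ends 2 bases before the start, and the E-box of GRHL3 ends 16 bases before it. A match describes the sequence only, as no binding was measured.

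The relatives of these factors included genes past the threshold. Of 29 measured paralogs, 3 were more than 1.5-fold higher in GLUT4 cells (10.3%, beside 1.84% of all genes). None was more than 1.5-fold lower, beside 1.54% of all genes, and the list median was 0.06. KLF8, a repressor linked to mesenchymal change, read 265 in GLUT4 cells and 147 in vector cells (0.85, and 0.55 averaged over its probe sets, within 1.5-fold). KLF10, induced by TGF-beta, read 4793 in GLUT4 cells and 3114 in vector cells (0.62). KLF9, a glucocorticoid-responsive gene, read 697 in GLUT4 cells and 457 in vector cells (0.61), but its other probe sets ran from -0.17 to 1.24 and their average with it was 0.41, within 1.5-fold, as was its value of 0.57 with 32 added. KLF6, an early growth-responsive paralog, was at 0.06. KLF7 was at 0.14 on its brightest probe set, its other probe sets ran from -0.24 to 0.68, and their average with it was 0.22. OVOL2, which also represses mesenchymal genes, read 385 in GLUT4 cells and 424 in vector cells (-0.14).

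Other regulators of squamous and epithelial cells were also mostly level. Of 28 measured, 26 lay within 1.5-fold, with a median of 0.03. In each direction 1 gene (3.57%) lay past it, beside 1.84% of all genes higher and 1.54% lower. SOX9, a factor of progenitor cells, was 2.09-fold lower in GLUT4 cells, at 180 against 376 in vector cells on its brighter probe set, and 101 against 155 on the other. PRDM1, a repressor found in differentiating keratinocytes, was higher at 120 in GLUT4 cells and 71.1 in vector cells (0.76), and within 1.5-fold at 0.45 averaged over its probe sets and at 0.56 with 32 added. The epithelial factors CEBPB, BNC1 and EHF were at -0.43, -0.06 and -0.19. None of the 20 cofactors and protein regulators passed 1.5-fold on its brightest probe set. Among them were the ubiquitin ligases MDM2 (-0.35) and NEDD4 (-0.05) and the kinase HIPK2 (0.01). CITED2 was at 0.26 there, but another of its probe sets read 198 in GLUT4 cells and 90.4 in vector cells (1.13). A further one was at -0.21, and the average was 0.39, within 1.5-fold. FBXW7 was at -0.25 on its brightest probe set and at 0.92 on its dimmest, with an average of 0.16. None of the 19 measured genes of the chromosome arm that carries SOX2 passed 1.5-fold on its brightest probe set, with a median of -0.03.

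Of 22 basal squamous genes, 2 were more than 1.5-fold higher in GLUT4 cells (9.09%, beside 1.84% of all genes) and 1 more than 1.5-fold lower (4.55%, beside 1.54%), with a median of 0.02. The basal keratin KRT14 read 3985 in GLUT4 cells and 1963 in vector cells (1.02), and its partner KRT5 was at 0.25. IGFBP3, a secreted IGF-binding protein, read 1355 and 422 on its probe sets in GLUT4 cells and 648 and 196 in vector cells (1.06 and 1.11). CYP27B1, which makes active vitamin D, read 182 in GLUT4 cells and 295 in vector cells (-0.69). Of 37 differentiation genes, none was more than 1.5-fold higher and 2 were more than 1.5-fold lower (5.41%), with a median of -0.09. Those lower were the calcium-binding protein S100A9, at 605 in GLUT4 cells and 1307 in vector cells (-1.11), and the barrier lipid transporter ABCA12, at 25.3 and 40.9 in GLUT4 and vector cells (-0.69, and -0.35 with 32 added). CSTA, a protease inhibitor of the cornified layer, and the differentiation keratin KRT10 were at 0.28 and 0.16. Of these 37 genes, 21 did not exceed the median signal.

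Epithelial junction and polarity genes, some of them known targets of Grainyhead-like factors, had the lowest median of the 8 lists set beside the factors. Of 21 measured, 17 lay below 0, beside 52.2% of all genes. In GLUT4 cells 5 were more than 1.5-fold lower (23.8%, beside 1.54% of all genes). None was more than 1.5-fold higher, beside 1.84% of all genes, and the list median was -0.30. OCLN, which encodes the tight junction protein occludin, read 104 in GLUT4 cells and 247 in vector cells on its brightest probe set (-1.25), and its other 3 probe sets were lower as well, at -0.49, -1.48 and -0.76. The claudin CLDN4 read 109 in GLUT4 cells and 226 in vector cells (-1.05), its dim second probe set was at -0.14, and their average was -0.59. EPCAM, an epithelial adhesion molecule, read 3020 in GLUT4 cells and 5361 in vector cells (-0.83). ST14, the membrane protease matriptase, was at -0.68 and CDS1, an enzyme of phospholipid synthesis, at -0.60, and averaged over their probe sets these came to -0.55 and -0.35, within 1.5-fold. With 32 added they came to -0.53 and -0.57, also within 1.5-fold. CDH1, which encodes E-cadherin, read 2224 in GLUT4 cells and 3223 in vector cells (-0.54), within 1.5-fold, as were CLDN1 at -0.52 and CLDN7 at -0.57. The splicing regulator ESRP1 (-0.04) and the desmosomal genes DSP (0.16) and JUP (-0.02) were level. Of the desmosomal cadherin genes in any list, DSC3 was at 0.53, with 0.41 and 0.42 on its other probe sets. DSG3 was at 0.11 and DSG1, near background, at 0.03, all within 1.5-fold. GRHL2 itself, at -0.23, lay nearer to 0 than the median of this list, and no test of that difference was possible.

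The windows before the starts of OCLN (plus strand, chr5:69492297-69492546) and CDS1 (plus strand, chr4:84582877-84583126) are shown because both genes were lower and both windows hold an element of the search, in capitals.
OCLN: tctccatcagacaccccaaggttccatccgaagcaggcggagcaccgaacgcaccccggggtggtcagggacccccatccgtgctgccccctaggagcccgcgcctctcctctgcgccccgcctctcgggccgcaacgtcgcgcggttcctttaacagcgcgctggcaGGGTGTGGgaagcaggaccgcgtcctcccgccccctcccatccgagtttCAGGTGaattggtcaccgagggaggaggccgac
CDS1: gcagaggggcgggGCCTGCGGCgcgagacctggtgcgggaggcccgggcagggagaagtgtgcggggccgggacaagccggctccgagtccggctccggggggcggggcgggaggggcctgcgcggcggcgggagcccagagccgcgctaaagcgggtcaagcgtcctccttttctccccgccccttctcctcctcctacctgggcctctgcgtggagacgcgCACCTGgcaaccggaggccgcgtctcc
The OCLN window held a Krüppel-like element and an E-box, and the CDS1 window held an AP-2 element and an E-box. The E-boxes end 28 and 22 bases before the starts of OCLN and CDS1. Over all windows, 17.5% held the E-box, 19.8% the AP-2 element and 2.97% the Krüppel-like element. A second start window of OCLN held an E-box only, ending 128 bases before that start. No window was held for EPCAM or ST14. The window of CLDN4 held none of the 6 elements, and none of these windows held the Grainyhead-like element.

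Mesenchymal genes, which Grainyhead-like and OVOL factors are known to oppose, diverged among themselves. Of 16 measured, 3 were more than 1.5-fold higher in GLUT4 cells (18.8%, beside 1.84% of all genes). More than 1.5-fold lower was 1 gene (6.25%, beside 1.54% of all genes), and the median was -0.01. SNAI2, the repressor Slug, read 4070 in GLUT4 cells and 2416 in vector cells (0.75). VIM, the intermediate filament vimentin, read 2618 in GLUT4 cells and 1222 in vector cells (1.10), beside a probe set near background at 7.38 and 8.17 in GLUT4 and vector cells, and the average of both was 0.48. ZEB2, a repressor of CDH1, read 51.7 in GLUT4 cells and 13.8 in vector cells (1.91, and 0.87 with 32 added). All 5 ZEB2 probe sets had a mean below the median signal, the differences of the others ran from -0.18 to 0.82, and the average was 0.57, within 1.5-fold. S100A4, a calcium-binding protein, read 118 in GLUT4 cells and 182 in vector cells (-0.63, and -0.51 with 32 added, within 1.5-fold). FN1, the brightest gene of the list, read 14861 in GLUT4 cells and 15213 in vector cells (-0.03). Its other probe sets ran from -0.02 to 0.90, and the average was 0.20. TWIST1, a mesenchymal regulator, read 864 in GLUT4 cells and 583 in vector cells (0.57), just within 1.5-fold. ZEB1, SNAI1 and TWIST2 were at -0.04, -0.09 and -0.04. With the medians of both arrays made equal, 4 genes of the list were more than 1.5-fold higher in place of 3. The 2 fibroblast markers past 1.5-fold were DCN at 1.12 and LUM at 1.05. The second LUM probe set, near background, was at 0.32, which is the value of LUM without probe sets ending in x_at or s_at and lies within 1.5-fold. The 8 markers summed to 1537 in GLUT4 cells and 918 in vector cells, and the 7 other than DCN to 487 in GLUT4 cells and 437 in vector cells. The collagens COL1A1, COL1A2 and COL3A1 were at 0.01, 0.16 and 0.19 on their brightest probe sets. A dim COL1A1 probe set read 34.2 in GLUT4 cells and 16.3 in vector cells (1.07). The remaining COL1A1 probe sets ran from -0.12 to -0.05, and the average over all of them was 0.16. The part of fibroblast-type transcripts in these differences was not tested.

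**Figure D3:**
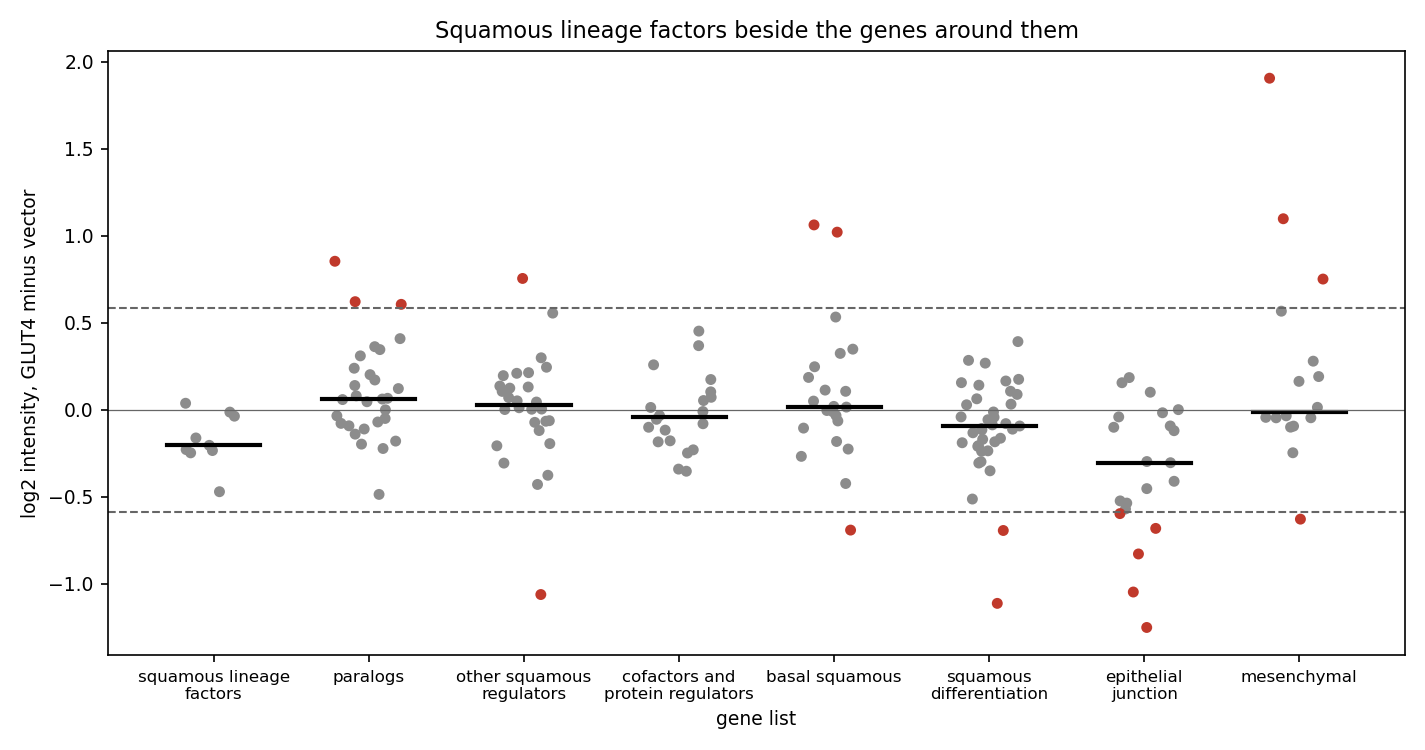
Log2 intensity of GLUT4 cells minus vector cells (vertical axis) on the brightest probe set of each gene, by gene list (horizontal axis). Each point is 1 gene, points past 1.5-fold (dashed lines) are red and bars are medians. The squamous lineage factors all lie within 1.5-fold around a median of -0.20. The epithelial junction list has 5 red points among 21, all on the lower side, beside 1.54% of all genes more than 1.5-fold lower.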

How the data were processed

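Total RNA of GLUT4 and vector FaDu cells was hybridised to Affymetrix Human Genome U133 Plus arrays. The authors deposited linear intensities, normalized between the arrays. The submitters' processing notes name MAS5, and the methods name GeneSpring with log2 values. The sources used here do not say how these steps were combined. Detection calls and depth were not used, and the number of arrays limits the precision. Intensities were set to at least 1 and log2-transformed, and vector was subtracted from GLUT4. A gene was represented by its brightest probe set (mean of both log2 values), among the 41097 naming a single gene. List genes without such a probe set are not reported here. The named genes were all factors, up to 5 genes of each list past 1.5-fold and up to 3 of the highest signal. Further ones (among them CDH1, CLDN1, CLDN7, ESRP1, JUP, OVOL2, ZEB1, SNAI1, TWIST1, TWIST2 and TFAP2A-AS1) were chosen after their values were seen. The same holds for CITED2, FBXW7, DSC3, DSG1 and DSG3. The factors and lists were chosen with earlier results of these data known. The difference and spread calculations were run on simulated data with independent noise at the measured SD. This checks the arithmetic only, and not whether disagreement between probe sets measures technical error. The alternatives were a loess fit (fraction 0.3), quantile normalization, equal array medians, averaging all probe sets of a gene, leaving out those ending in x_at or s_at, an offset of 32 and a filter at the median signal. Python 3.11.15, numpy 2.4.6, pandas 2.3.3, statsmodels 0.14.6 and matplotlib 3.10.9 were used.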

Additional observations from a re-analysis of the deposited data

How the results depend on the processing

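Under all 7 alternatives no squamous lineage factor passed 1.5-fold, and their median ran from -0.22 to -0.12. With equal array medians 7 factors lay below 0 in place of 8, as OVOL1 came to 0.01. Of 60 factor values under the alternatives, 59 moved by less than 0.20, the SD per probe set, and GRHL1 moved to -0.17 with the offset of 32. The filter at the median signal left 7 factors, and leaving out probe sets ending in x_at or s_at left 8. Under both, the remaining factors kept their brightest probe set, so their values could not move. Averaging could not move GRHL2 or GRHL3, each with 1 probe set, and equal array medians shifted every factor by the same amount. The count of 59 therefore says little about stability. With the offset of 32, other squamous regulators past 1.5-fold higher numbered 0, differentiation genes lower 1, junction genes lower 3 and mesenchymal genes lower 0. Averaging all probe sets of a gene gave 1 paralog higher, 0 other squamous regulators higher, 3 junction genes lower and 1 mesenchymal gene higher. Without probe sets ending in x_at or s_at there were 1 paralog higher, 0 other squamous regulators lower, 1 basal gene higher and 0 mesenchymal genes lower. The loess fit gave 2 other squamous regulators higher, and the filter left 1 differentiation gene lower. Over all genes, the offset gave 205 higher and 168 lower, and averaging gave 268 and 186, in place of 363 and 304. The cause of these changes was not tested. No paired analysis was possible because each group had 1 array. Signal over background limits the values of GRHL1, GRHL3 and SOX2.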
